A study of Bos grunniens and Bos grunniens x Bos taurus with 6 samples.

Results

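The mitochondrial genome of the yak was represented by 37 of the 26961 features that were counted in single-cell RNA libraries of testis. They were taken by their identifiers, which name the mitochondrial record or a mitochondrial gene, and no measured value entered the choice. The set holds 2 rRNAs, 13 protein-coding genes and 22 tRNAs, the complement known for vertebrate mitochondria. The 24 rRNA and tRNA identifiers carry their positions, from 894 to 16323 of the mitochondrial record, and 24 of these 24 matched the RNA rows of the NCBI RefSeq gene table of Bos grunniens (assembly Bosgru_T2T1.0). That table gave the lengths and the order of the genes, but no name for the rRNAs and tRNAs, which are called here by length and position. Libraries made with 10x Genomics chemistry came from the testis of yak (Bos grunniens) and of a cattle-yak (Bos grunniens x Bos taurus), the hybrid of yak and cattle. The series asks how testis cells develop. Per the labels, 1 library came from a cattle-yak past sexual maturity, 2 from prepubertal yak of 6 months (replicates 1 and 2), 2 from adolescent yak of 18 months (replicates 3 and 4) and 1 from a yak of 4 years past sexual maturity (replicate 5). The age of the cattle-yak and the species of its dam, from which mitochondria are inherited, are not in the labels. Whether the 2 libraries of each age are of different animals is not in them either, so a p-value measures the spread between these samples, which may be technical.

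Mitochondria carry a small circular genome that is transcribed as long precursors from both strands, and the tRNAs that lie between the other genes are cut out to release the mRNAs and rRNAs. Its mRNAs encode core subunits of respiratory complexes I, III, IV and V, whose other subunits are encoded in the nucleus. The share of a cell's RNA that comes from this genome varies between cell types, and single-cell studies often discard barcodes above a limit on that share as damaged cells. In the testis, Sertoli cells nurse the germ cells in the seminiferous tubule, and germ cells change their mitochondria and their metabolism as they pass from spermatogonia through meiosis to spermatids.

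The libraries held 5104 to 8946 barcodes, 9575446 to 24762829 UMIs (unique molecular identifiers, counted molecules) and 831931 to 4178025 mitochondrial UMIs. Every deposited barcode was kept, whatever its mitochondrial share, and each held at least 500 UMIs. The tissue had been frozen, thawed, digested with enzymes and held in medium before loading, and barcodes below 500 UMIs were not analysed here. The labels tag the cells as germ cells, but marker gates of Sertoli, stromal, endothelial, mural and immune cells each held barcodes in 6 of 6 libraries. Pairs of libraries shared 5 to 16 barcode sequences, of 40564 barcodes in all. Intervals are exact 95% binomial or Poisson intervals, cover counting error only and say nothing of the spread between animals. CPM are UMIs per 1000000 UMIs of a library or gate. Reads of nuclear copies of mitochondrial DNA, which genomes carry, could be counted with these features or lost from them, and this was not tested.

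Mitochondrial transcripts took a larger share of the RNA in the older yak and in the cattle-yak than in the prepubertal yak. Of all UMIs they made up 12.4% in the cattle-yak, 4.32% and 5.51% at 6 months, 16.9% and 11.6% at 18 months and 8.49% at 4 years. The mean was 14.3% ± 3.71 at 18 months and 4.92% ± 0.842 at 6 months (SD, n = 2 each), and the libraries of these ages did not overlap. The median share per barcode was 11.6% in the cattle-yak, 5.03% and 5.59% at 6 months, 17.5% and 13.4% at 18 months and 11.5% at 4 years. Single barcodes reached 90.4% to 97.3% in every library. Above 20%, a limit in common use, lay 19.9% in the cattle-yak, 4.02% and 6.64% at 6 months, 42.2% and 29.0% at 18 months and 21.9% at 4 years (share of barcodes). Above 40% lay 4.66% in the cattle-yak, 1.18% and 2.57% at 6 months, 12.6% and 6.73% at 18 months and 5.66% at 4 years. At the low end, the share of barcodes of at most 1% was 2.47% in the cattle-yak, 24.9% and 26.0% at 6 months, 1.90% and 4.30% at 18 months and 11.2% at 4 years. The prepubertal libraries thus held both the fewest barcodes above 20% and the most barcodes up to 1%. With 2 libraries at each age, no exact two-sided permutation test can go below p = 0.33, and shares were given without a test.

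**Figure D1:**
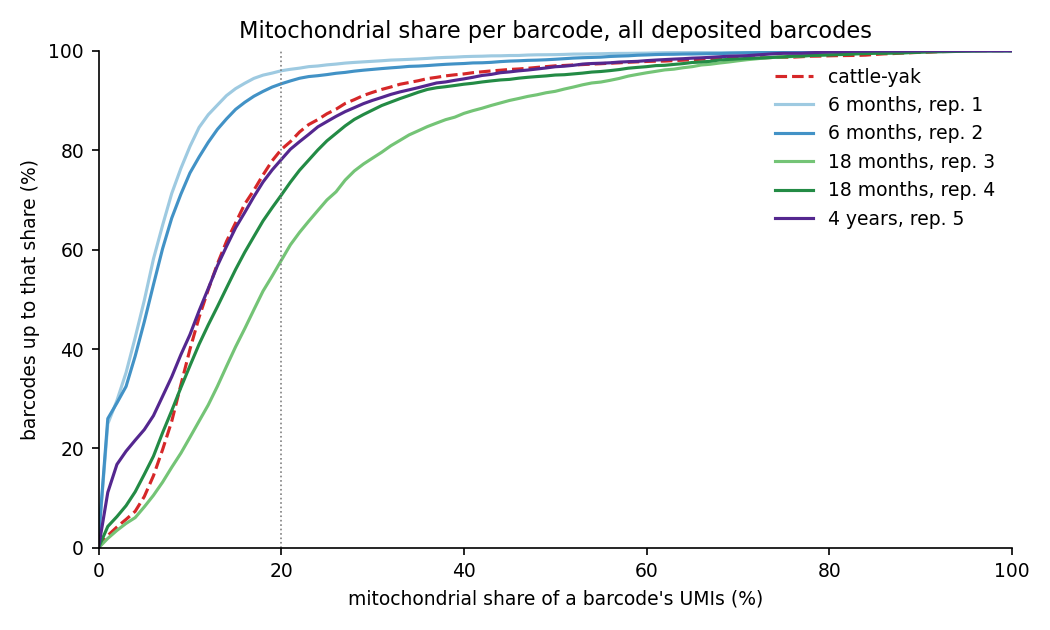
Cumulative share of deposited barcodes (y axis, %) up to a given mitochondrial share of their UMIs (x axis, %), a line for each library, with a dotted line at 20%. The 18-month libraries lie to the right, with 42.2% and 29.0% of barcodes above 20%, and the 6-month libraries to the left, with 24.9% and 26.0% at or below 1%.

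The 2 rRNAs, the RNA core of the mitochondrial ribosome, held a large part of mitochondrial UMIs, with 45.9% in the cattle-yak, 51.9% and 42.3% at 6 months, 47.2% and 33.0% at 18 months and 35.0% at 4 years. The labels give polyadenylated RNA as the molecule measured. The shorter rRNA (positions 961 to 1917) had 24946 CPM in the cattle-yak, 11960.5 and 11773 at 6 months, 41032 and 18890.2 at 18 months and 17342 at 4 years. The longer rRNA (positions 1985 to 3555) had 32057 CPM in the cattle-yak, 10458 and 11527 at 6 months, 38589 and 19439 at 18 months and 12364 at 4 years. The shorter rRNA was highest in 18-month replicate 3, and the libraries of 18 months lay above those of 6 months for both rRNAs. Relative to UMIs of the shorter rRNA, those of the longer came to 129% in the cattle-yak, 87.4% and 97.9% at 6 months, 94.0% and 103% at 18 months and 71.3% at 4 years. This ratio was highest in the cattle-yak and lowest at 4 years, with the younger yak between them. Per kilobase of gene, the shorter rRNA led the 15 rRNAs and mRNAs in 4 of 6 libraries, with 26067 CPM per kilobase in the cattle-yak, and COX3 led in 18-month replicate 4 and at 4 years, with 28632 and 19966.

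Subunits of cytochrome c oxidase, complex IV, were the 3 mRNAs with the most UMIs in 5 of 6 libraries, and in 6-month replicate 1 ATP6 lay above COX1. COX3 had 17482 CPM in the cattle-yak, 6004 and 8602 at 6 months, 22725 and 22362 at 18 months and 15594 at 4 years. COX2, which takes up electrons from cytochrome c, had 13074 CPM in the cattle-yak, 4653 and 5884 at 6 months, 13977 and 15739.9 at 18 months and 10628 at 4 years. COX1, the catalytic subunit, had 9767 CPM in the cattle-yak, 2325 and 4452 at 6 months, 12901 and 10204 at 18 months and 6799.8 at 4 years. For these 3 mRNAs both libraries of 18 months lay above both of 6 months, and the cattle-yak and 4 years lay above 6 months too. As a share of mitochondrial UMIs, COX3 had 14.1% in the cattle-yak, 13.9% and 15.6% at 6 months, 13.5% and 19.2% at 18 months and 18.4% at 4 years, the largest value of any mRNA in 6 of 6 libraries.

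CYTB, the cytochrome b of complex III, had 4517 CPM in the cattle-yak, 1621 and 3126 at 6 months, 6399 and 6395 at 18 months and 4152 at 4 years. ATP6, the proton channel subunit of ATP synthase (complex V), had 7433 CPM in the cattle-yak, 2392 and 3149 at 6 months, 10375 and 7500.1 at 18 months and 6319 at 4 years. ATP8, a small subunit of the same enzyme, had 140.4 CPM in the cattle-yak, 62.5 and 51.8 at 6 months, 215 and 80.5 at 18 months and 73.8 at 4 years. ATP8 and ATP6 are read from the same mRNA and overlap by 40 bases, yet their levels per kilobase were far apart. Relative to ATP6 per kilobase, ATP8 came to 6.40% in the cattle-yak, 8.86% and 5.58% at 6 months, 7.01% and 3.64% at 18 months and 3.96% at 4 years. How counting split reads of overlapping genes is not stated in the labels or headers used here, so the split between such neighbours is uncertain. The same holds for ND4L and ND4 (7 bases shared) and for ND5 and ND6 (17 bases shared).

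The 7 subunits of NADH dehydrogenase, complex I, ranged widely. ND4 had 4948 CPM in the cattle-yak, 1547 and 2805 at 6 months, 6599 and 6784 at 18 months and 4944 at 4 years. ND2 had 3912 CPM in the cattle-yak, 662 and 1522 at 6 months, 6849.9 and 3654 at 18 months and 2866 at 4 years. ND4 thus led the complex I subunits in 5 of 6 libraries and ND2 in 18-month replicate 3, and both belong to the membrane arm that pumps protons. ND1, which lies at the quinone site, had 3047 CPM in the cattle-yak, 660.3 and 981 at 6 months, 3259 and 2518 at 18 months and 1787 at 4 years. ND5, the far end of the membrane arm, had 1403 CPM in the cattle-yak, 356 and 589 at 6 months, 2143 and 1320.4 at 18 months and 995 at 4 years. Replicate 3 held the highest level of ND1, ND2 and ND5, and in these 4 subunits both libraries of 18 months lay above both of 6 months. ND4L had 182 CPM in the cattle-yak, 60.8 and 97.5 at 6 months, 202 and 154 at 18 months and 156 at 4 years. It shares an mRNA with ND4, and relative to ND4 per kilobase it came to 17.1% in the cattle-yak, 18.2% and 16.1% at 6 months, 14.2% and 10.5% at 18 months and 14.7% at 4 years. ND6, transcribed from the opposite strand to the other 12 protein-coding genes, had 132 CPM in the cattle-yak, 28.9 and 48.8 at 6 months, 207 and 85.4 at 18 months and 45.9 at 4 years. Per kilobase it was the lowest of the 15 rRNAs and mRNAs in 6 of 6 libraries, at 54.8 to 391 CPM per kilobase. Neither the use of the strand in counting nor the kit version is stated in the labels or headers, so reads of ND6 and of RNA antisense to it may not be told apart.

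ND3, a small subunit of complex I, stood apart in 1 library. It had 1213 CPM in the cattle-yak, 411 and 504 at 6 months, 3191 and 1178 at 18 months and 856 at 4 years. As a share of mitochondrial UMIs it had 0.976% in the cattle-yak, 0.952% and 0.915% at 6 months, 1.89% and 1.01% at 18 months and 1.01% at 4 years, so 5 libraries lay between 0.915% and 1.01% and 18-month replicate 3 above them. In barcodes of at most 20% mitochondrial UMIs the share was 0.998% in the cattle-yak, 0.811% and 0.930% at 6 months, 1.80% and 1.03% at 18 months and 0.990% at 4 years. In Sertoli-gated barcodes, defined below by marker UMIs, it was 2.33% in replicate 3 and 0.988% in replicate 4, and in lymphocyte-gated barcodes 3.10% and 1.38%. Spermatogonium-gated barcodes were nearer to each other, with 1.33% and 1.27%.

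**Figure D2:**
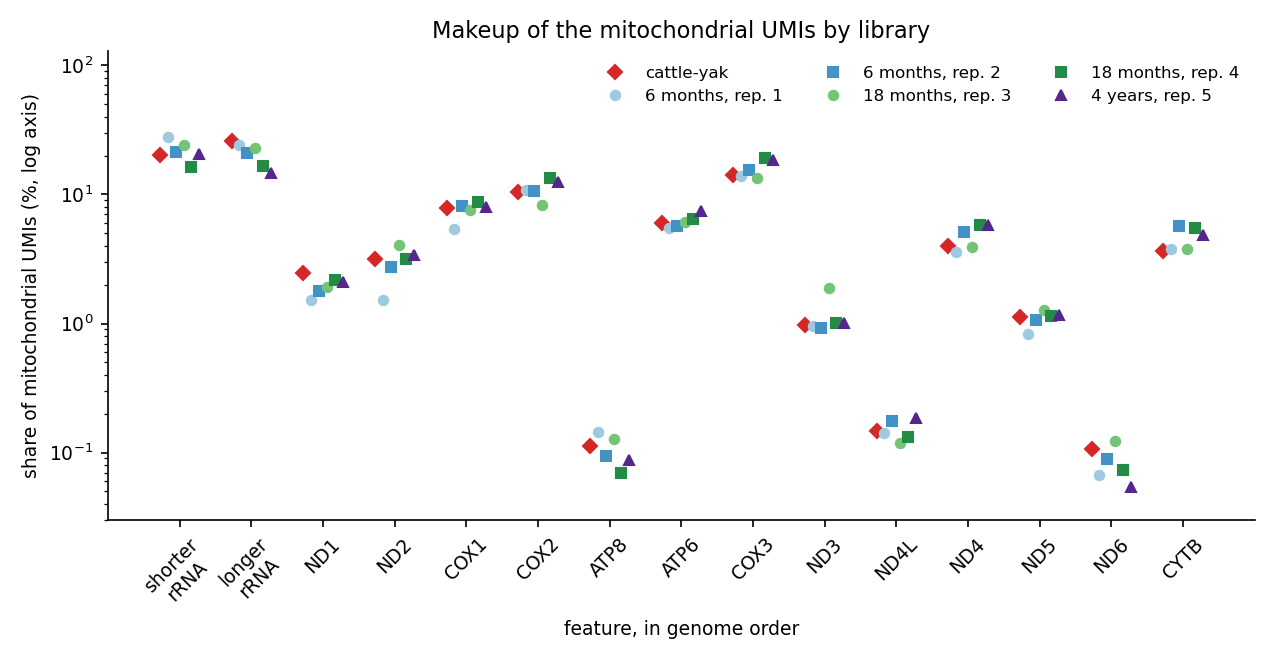
Share of each rRNA and mRNA in the mitochondrial UMIs of a library (y axis, %, log scale), in genome order (x axis), with a point for each of the 6 libraries. Among the mRNAs, COX3 is the highest in each library, at 13.5% to 19.2%, and ND6 the lowest or next to lowest, at 0.0540% to 0.122%, and ND3 of 18-month replicate 3 (1.89%) lies above the other 5 points.

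The 22 tRNAs, which decode the mitochondrial mRNAs and mark the cutting sites between them, were rare in 5 libraries and higher in 18-month replicate 3. Their summed UMIs were 78 in the cattle-yak, 112 and 50 at 6 months, 1479 and 127 at 18 months and 55 at 4 years. Per 1000000 mitochondrial UMIs this was 65.6 in the cattle-yak, 135 and 58.3 at 6 months, 354 and 62.5 at 18 months and 40.7 at 4 years. For replicate 3 the counting interval was 336–373, and for 6-month replicate 1, the next highest, 111–162. Features with at least 1 UMI numbered 13 of 22 in the cattle-yak, 16 and 12 at 6 months, 22 and 15 at 18 months and 15 at 4 years. A feature at 0 may still have had up to 0.156 to 0.313 CPM in the 5 libraries with such features, the limit that a count of 0 allows (3 UMIs per library).

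The tRNA with the most UMIs, at 12510 to 12569, had 16 UMIs in the cattle-yak, 26 and 18 at 6 months, 206 and 41 at 18 months and 21 at 4 years. The tRNA at 16258 to 16323 had 5 UMIs in the cattle-yak, 9 and 5 at 6 months, 244 and 24 at 18 months and 5 at 4 years. The tRNA at 10287 to 10355, which the table places next to ND3, had 4 UMIs in the cattle-yak, 3 and 1 at 6 months, 241 and 12 at 18 months and 2 at 4 years. The rarest, at 14973 to 15041, was seen as 1 UMI, in replicate 3. As a share of mitochondrial UMIs, 17 of 22 tRNAs were highest in replicate 3. UMIs came from many barcodes, with 1090 holding at least 1 in replicate 3 and at most 13 in a barcode. Replicate 3 also had the most tRNA per 1000000 mitochondrial UMIs in each of its 8 marker gates, which are defined below. In the Sertoli gate it had 289.9 (240 UMIs) and replicate 4 had 45.5 (38 UMIs). In the spermatogonium gate they had 359.6 (300 UMIs) and 43.2 (7 UMIs). It was also the library with the most UMIs and the highest mitochondrial share, whose part in its tRNA level was not tested.

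Summed over whole libraries, 21 of the 21 mitochondrial features that passed the filter on low counts were higher at 18 months than at 6 months, but 0 passed the test at an adjusted p of 0.05 (edgeR quasi-likelihood with Benjamini-Hochberg adjustment over 13995 genes, n = 2 libraries per age). Of all genes tested, 1.01% were called. Unadjusted p-values were below 0.05 for 2 of the 21, the tRNAs at 10287 to 10355 and at 16258 to 16323, beside 2966 of 13995 genes. DESeq2 called 1, the tRNA at 10287 to 10355, beside 4.47% of all genes. The log2 fold changes ran from 0.21 (ND4L) to 4.23 (the tRNA at 10287 to 10355), with a median of 0.85, beside −0.024 over all genes. This tRNA had 253 UMIs at 18 months, of which replicate 3 held 241, against 4 UMIs at 6 months (adjusted p = 0.127). ND2 had 1.25 ± 0.74 (log2 fold change ± SE), ND3 1.17 ± 0.60, COX3 0.71 ± 0.94, CYTB 0.52 ± 0.78, ATP6 0.72 ± 0.76 and the shorter rRNA 0.28 ± 0.97. These are on the TMM scale, on which 18 over 6 months lies below the CPM ratio by 0.96 (log2). Here and below, a feature or gene is said to have risen only where it passed the test as higher at 18 months. On library totals without TMM, 12 of 21 rose in this sense, beside 17.8% of all genes, and 21 of 21 had positive log2 fold changes. ND2 had 2.27 ± 0.54 there (adjusted p = 0.0139, edgeR quasi-likelihood). Without replicate 4, 5 of 28 features rose, ND3 and 4 tRNAs, beside 7.93% of all genes. Without replicate 1 a single tRNA of 28 features rose, beside 1.97% of all genes, and without replicate 2 or 3 the count stayed at 0, beside 1.21% and 0.0%. In such sums, more or fewer cells of a type and more or less RNA per cell cannot be told apart.

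To hold cell type apart, barcodes were gated by marker UMIs, none of them mitochondrial. A barcode entered a gate when at least 2 different markers of its list had a UMI and the list's summed UMIs were at least 2 times those of every other list. The Sertoli gate (FSHR, SOX9, INHA, CITED1, WT1 and DHH) held 118 barcodes in the cattle-yak, 1194 and 730 at 6 months, 435 and 1268 at 18 months and 30 at 4 years. In its barcodes above 1% mitochondrial UMIs, INHA had 1296 CPM (of nuclear-gene UMIs) in the cattle-yak and 992 at 4 years, against 4811 to 12459 in the younger libraries. FSHR (20.0 and 0) and DHH (0 and 0) were also lower than there, CITED1 (972 and 789) and WT1 (120 and 142) higher, and SOX9 (304 and 728) within their range. Whether the gate holds the same cells in the cattle-yak and at 4 years was not tested. The mitochondrial share of UMIs in the Sertoli gate was 16.5% in the cattle-yak, 2.50% and 3.79% at 6 months, 30.6% and 12.6% at 18 months and 11.7% at 4 years, the widest range over libraries of the somatic gates. The stroma gate (DCN and PDGFRA among its markers) had 14.4% in the cattle-yak, 5.87% and 5.96% at 6 months, 16.1% and 14.8% at 18 months and 13.5% at 4 years. Its libraries of 18 months lay above those of 6 months with little spread within an age. Endothelial-gated barcodes had 7.99% in the cattle-yak, 3.09% and 4.35% at 6 months, 10.4% and 5.57% at 18 months and 10.4% at 4 years. Mural-gated barcodes were smooth muscle cells, peritubular myoid cells and pericytes by their markers (ACTA2, MYH11, TAGLN, RGS5, CNN1 and NOTCH3). Their mitochondrial share was 13.1% in the cattle-yak, 6.53% and 7.34% at 6 months, 15.4% and 10.2% at 18 months and 17.9% at 4 years, with the highest value at 4 years. Lymphocyte-gated barcodes had 9.57% in the cattle-yak, 6.64% and 7.20% at 6 months, 17.1% and 7.89% at 18 months and 11.9% at 4 years. In these 5 gates both libraries of 18 months lay above both of 6 months, with the smallest gap in the lymphocyte gate. The gate on CYP11A1 and STAR, which act in steroid synthesis, rests on 2 markers and is therefore not given a cell type. It had 17.2% and 13.5% at 6 months (51 and 9 barcodes), the highest of any gate at that age, and held at most 1 barcode in each other library.

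**Figure D3:**
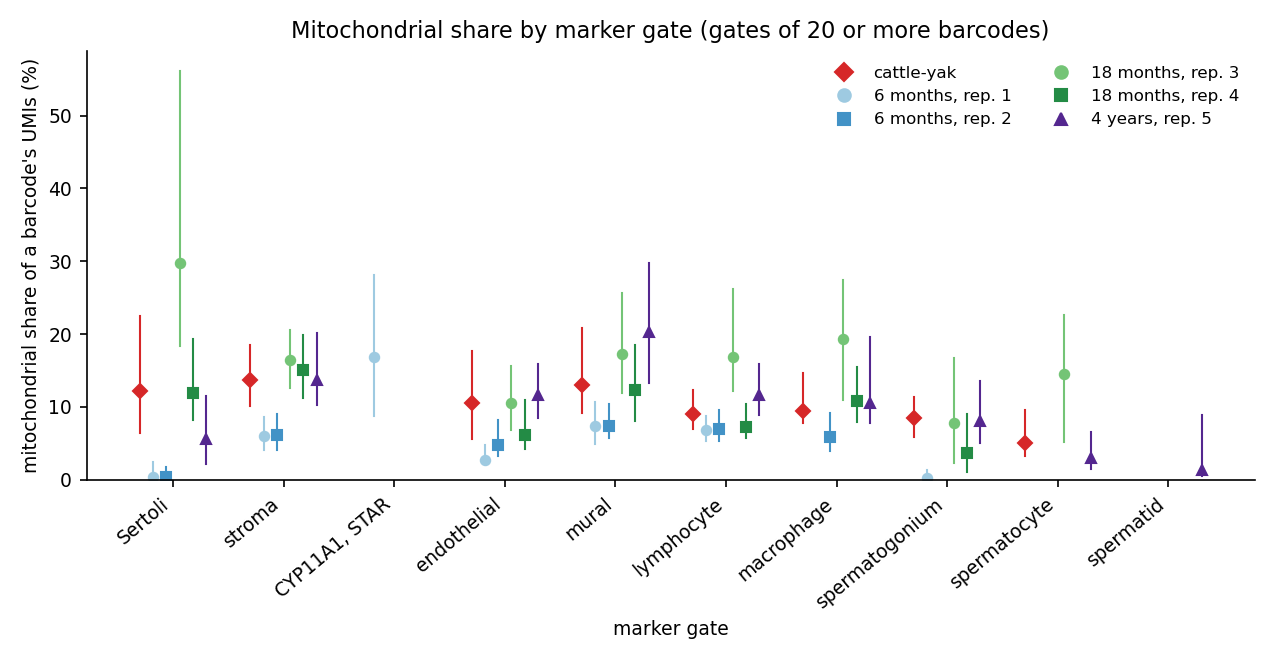
Median mitochondrial share of a barcode's UMIs (y axis, %, with bars from the lower to the upper quartile) by marker gate (x axis) and library, for gates of at least 20 barcodes. Sertoli-gated barcodes lie at 29.8% and 12.0% at 18 months and at 0.407% and 0.420% at 6 months, while stroma-gated medians differ less, from 5.98% to 16.4%.

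Most prepubertal Sertoli-gated barcodes had almost no mitochondrial RNA. At a limit of 1%, chosen after the values were seen, 0.920% (0.251–2.34) and 2.37% (1.60–3.36) of Sertoli-gated barcodes lay at or below it at 18 months, against 65.5% (62.7–68.2) and 68.2% (64.7–71.6) at 6 months. The cattle-yak had 1.69% (0.206–5.99). The median was 29.8% and 12.0% at 18 months, against 0.407% and 0.420% at 6 months. The Sertoli gate held 35.0% and 28.3% of all barcodes up to 1% at 6 months, and 63.7% and 70.1% of them were in no gate. Bins just below and just above the limit, from 0.5% to 1% and from 1% to 2%, held 11.2% and 7.45% of the Sertoli gate in replicate 1. Thinned to 500 UMIs per barcode, the shares up to 1% were 0.920% and 2.52% at 18 months, against 65.2% and 69.6% at 6 months. With barcodes that held any UMI of another list left out, they were 0.813% and 2.69% at 18 months, against 75.2% and 78.1% at 6 months. With 3 markers asked for, they were 0.568% and 0.754% at 18 months, against 56.1% and 56.7% at 6 months. In the stroma gate 0 of 894 and 0 of 332 barcodes lay at or below 1% at 18 months (upper bounds 0.412% and 1.10%), against 0.268% (0.0869–0.623) and 0.108% (0.00273–0.599) at 6 months. In the endothelial, mural and lymphocyte gates, the share at 6 months was at most 1.61%.

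In 6-month Sertoli-gated barcodes, those at or below 1% differed from those above it in different directions over the 6 markers. SOX9, a transcription factor of Sertoli cells, had 186 and 154 CPM (of nuclear-gene UMIs) up to 1%, against 683 and 285 above it. INHA, the inhibin alpha subunit, had 6437 and 12111 CPM up to 1%, against 6528 and 12459 above it. WT1, a factor of gonad development, was also lower in both libraries, with 27.0 and 30.3 CPM up to 1%, against 79.2 and 54.6 above it. CITED1, a transcriptional cofactor, and FSHR, the receptor of follicle-stimulating hormone, were higher in both, with 146 and 123 CPM up to 1%, against 92.1 and 81.8 above it for CITED1 and 76.1 and 141 CPM up to 1%, against 60.6 and 118 above it for FSHR. DHH, a signalling ligand, was rare, with 4.17 and 4.15 CPM up to 1%, against 5.25 and 6.55 above it. The 26 nuclear-encoded subunits of complexes I, III, IV and V in the files, of 56 listed, had 4445 and 5452 CPM in sum up to 1%, against 4336 and 5147 above it. These nuclear subunits were thus at a like level in barcodes that the limit had chosen for few mitochondrial UMIs. Median depth was 3059 and 2839 UMIs with 587 and 626 genes up to 1%, against 2717 and 2761 UMIs with 702 and 709 genes above it. The limit itself splits the mitochondrial UMIs, so their own difference is no result, and the part of depth and gene number in the SOX9 level was not tested.

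Spermatogonium-gated barcodes (UCHL1, ZBTB16, DMRT1, GFRA1 and NANOS3) also lay mostly up to 1% at 6 months, on few barcodes. DMRT1 is also known from Sertoli cells. At or below 1% lay 15.4% (12.2–19.1) of 447 and 24.1% (19.4–29.3) of 303 at 18 months, against 72.0% (50.6–87.9) of 25 and 73.7% (48.8–90.9) of 19 at 6 months. In the cattle-yak 0 of 34 did (upper bound 10.3%), and at 4 years 7.23% (3.79–12.3) of 166. The mitochondrial share of the gate's UMIs was 11.5% and 6.14% at 18 months, against 1.23% and 1.21% at 6 months. With fewer than 50 barcodes in each 6-month library, this gate was not tested between ages.

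**Figure D4:**
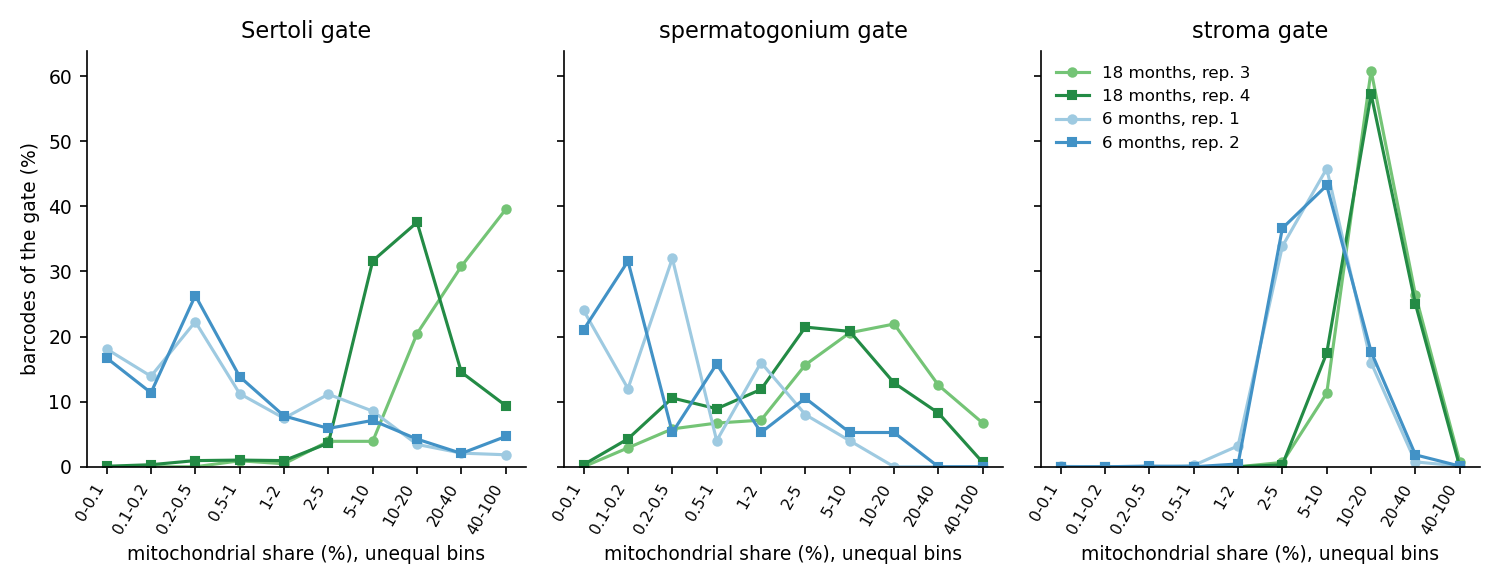
Share of gated barcodes (y axis, %) in bins of mitochondrial share (x axis, %, bins of unequal width) in the 18-month and 6-month libraries, for the Sertoli, spermatogonium and stroma gates. At 18 months most Sertoli-gated barcodes lie above 5%, and at 6 months most lie at or below 1% (65.5% and 68.2% of barcodes), while stroma-gated barcodes are almost all above 2% at both ages.

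Within the Sertoli gate the mitochondrial features were higher at 18 months as a block, with a wide spread between the libraries. COX3 had 46275 and 27913 CPM at 18 months, against 4235 and 6375 CPM at 6 months. ND1 had 6430.3 and 2934 CPM at 18 months, against 355 and 554 CPM at 6 months. The shorter rRNA had 63209 and 15689 CPM at 18 months, against 5434 and 7489 CPM at 6 months. The ages did not overlap for these 3, and replicate 3 was the highest in each. All 15 features tested (the rRNAs and mRNAs) had positive log2 fold changes, from 1.68 to 3.20 with a median of 2.11, beside 0.061 over all genes. None passed the test (edgeR quasi-likelihood with Benjamini-Hochberg adjustment, n = 2 per age), which called 0.0% of 8510 genes. The smallest adjusted p was 0.165 (edgeR), for ND1 (2.63 ± 0.66), while 15 of 15 had an unadjusted p below 0.05, beside 1366 of 8510 genes. DESeq2 called 15 of 15 as higher, beside 2.72% of the 1214 genes to which it gave an adjusted p. On library totals 12 of 15 passed as higher, beside 2.12% of all genes, and with mixed barcodes left out 15 of 15, beside 10.3%. With 3 markers asked for, 0 of 15 passed, beside 2 of 7045 genes called as higher. With 300 or more genes and at most 20% mitochondrial UMIs, 0 of 15 passed, beside 8 of 8389 genes called as higher. All 15 log2 fold changes stayed positive in both settings, from 1.57 to 3.12 and from 1.50 to 2.91. Without replicate 1, 2, 3 or 4 in turn, 2 of 20, 1 of 22, 10 of 15 and 19 of 19 features rose, beside 0.408%, 0.313%, 1.89% and 8.31% of all genes. The call thus changes with the tool, the scale and single libraries. Sertoli markers summed to 4329 and 6594 CPM at 18 months, against 6929 and 12237 CPM at 6 months in the gate, and the next list, that of the spermatogonia, to 142 and 296 CPM at 18 months, against 134 and 111 CPM at 6 months. The TMM scale lay below the CPM ratio by 0.69 (log2) here, 0.31 in the stroma, 0.20 in the mural, 0.12 in the lymphocyte and 0.11 in the endothelial gate.

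Among stroma-gated barcodes ND3 had 3061 and 1650.0 CPM at 18 months, against 453 and 452 CPM at 6 months, and COX3 17158 and 22838 CPM at 18 months, against 7512 and 8984 CPM at 6 months. The median log2 fold change of the 15 features was 1.27, beside 0.071 over all genes, and 0 passed (edgeR quasi-likelihood), where 0.971% of all genes did. ND3 came nearest, with 2.02 ± 0.52 (adjusted p = 0.114, edgeR quasi-likelihood). An unadjusted p below 0.05 was found for 9 of 15, beside 1309 of 7620 genes. DESeq2 called 2, ND2 and ND3, beside 0.158% of all genes. On library totals 5 rose, beside 1.75% of all genes, and without replicate 4 the count was 6 of 18, beside 3.3%. Medians were 0.93 in the endothelial, 0.77 in the lymphocyte and 0.71 in the mural gate, with 15 of 15 features positive in each and 0 called by edgeR or DESeq2. All genes were called at 0.274%, 0.105% and 1.02% in these gates by edgeR, and 0.038%, 0.0199% and 0.342% as higher at 18 months by DESeq2. Unadjusted p-values were below 0.05 for 7, 3 and 3 of 15 in the same order, beside 314 of 4009, 281 of 5741 and 475 of 5014 genes. The nearest features were ND3 in the endothelial gate (1.50 ± 0.48, adjusted p = 0.374, edgeR), ND3 in the lymphocyte gate (1.61 ± 0.63, adjusted p = 0.840, edgeR) and ND6 in the mural gate (1.26 ± 0.53, adjusted p = 0.332, edgeR). Without replicate 4, 6 of 15 rose in the mural gate and 1, the longer rRNA, in the endothelial gate, beside 3.32% and 0.243% of all genes.

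In a joint fit the change between the ages itself differed between gates, though the count of features called depended on the libraries kept. A joint fit with library as a block tested whether the difference of 18 over 6 months was the same in the Sertoli, stroma, endothelial, mural and lymphocyte gates. It called 12 of 18 mitochondrial features tested, against 4.41% of 9106 genes (edgeR quasi-likelihood with Benjamini-Hochberg adjustment). Called were the shorter rRNA, COX1, COX2, COX3, CYTB, ATP6 and 6 of the 7 complex I subunits, ND6 excepted. Their change in the Sertoli gate exceeded that in the endothelial gate by a median of 1.59 (log2, 0.79 to 1.75), in the stroma gate by 0.57 (−0.098 to 0.84), and in the lymphocyte gate by 0.13. In the mural gate the median difference from the endothelial gate was −0.037. The largest excess in the Sertoli gate was that of ND1, with 1.75 (adjusted p = 0.000551, edgeR quasi-likelihood), and COX3 had 1.69 (adjusted p = 0.000231, edgeR quasi-likelihood). The longer rRNA, ATP8 and ND6 did not pass (adjusted p = 0.131, 0.109 and 0.190, edgeR quasi-likelihood). The count was 2 of 19 without replicate 2, beside 0.636% of all genes. It was 9 of 20, 13 of 15 and 15 of 20 without replicate 1, 3 or 4, beside 2.81%, 8.02% and 7.73%. Median UMIs per barcode of the Sertoli gate also differed, with 4260 and 4856 at 18 months, against 3004 and 2814 at 6 months, and its part in the result was not tested.

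The makeup of mitochondrial RNA also differed between gates of the same library. Stroma-gated barcodes had rRNA shares of 52.3% in the cattle-yak, 58.5% and 48.0% at 6 months, 55.8% and 47.5% at 18 months and 41.4% at 4 years. In the Sertoli gate these shares were 27.8% in the cattle-yak, 41.7% and 39.1% at 6 months, 40.6% and 24.7% at 18 months and 26.2% at 4 years, less than in the stroma gate in 6 of 6 libraries, a pair chosen after the values were seen. COX3 ran the other way. In the Sertoli gate its share of mitochondrial UMIs was 20.9% in the cattle-yak, 16.9% and 16.8% at 6 months, 15.1% and 22.2% at 18 months and 22.3% at 4 years. In the stroma gate it was 12.4% in the cattle-yak, 12.8% and 15.1% at 6 months, 10.7% and 15.4% at 18 months and 15.9% at 4 years. The gates of a library share its preparation, and these shares carry no test. As given above, markers of the Sertoli gate differed in the cattle-yak and at 4 years, so it may hold other cells there.

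At 4 years the mitochondrial share was lower in each later germ cell gate. It was 8.41% (8.36–8.46) of UMIs in 166 spermatogonium-gated barcodes, 3.36% (3.33–3.39) in 207 spermatocyte-gated barcodes, marked by meiotic genes such as SYCP1 and DMC1, and 2.65% (2.64–2.67) in 1043 spermatid-gated barcodes, marked by acrosome genes such as ACRV1 and SPACA1. Median shares per barcode were 8.05%, 2.94% and 1.30%, and 43.2% (40.2–46.3) of spermatid-gated barcodes lay at or below 1%. COX3 had 13814, 7387 and 6044 CPM along the same order, and the shorter rRNA 27517, 6053 and 4147. The shorter rRNA thus held 32.7%, 18.04% and 15.6% of mitochondrial UMIs, while COX3 held 16.4%, 22.01% and 22.8%. The nuclear-encoded subunits of the complexes had 9463, 10879 and 6716 CPM in sum (of nuclear-gene UMIs). In the cattle-yak the share was 7.65% in 34 spermatogonium-gated and 4.81% in 32 spermatocyte-gated barcodes, against 8.41% and 3.36% at 4 years. At 18 months, replicate 3 ran the other way, with 17.998% in 20 spermatocyte-gated barcodes against 11.5% in 447 spermatogonium-gated barcodes. Replicate 4 had 5.21% in 6 spermatocyte-gated against 6.14% in 303 spermatogonium-gated barcodes. Median UMIs per barcode at 4 years were also lower in each later gate, with 5496.5, 3369 and 1528, and their part was not tested. The cattle-yak and 4 years are 1 library each, so there is no replicate check of either.

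The cattle-yak and the yak of 4 years, both past sexual maturity, differed in total and in makeup. The summed CPM of mitochondrial features had a ratio of 1.46 (1.46–1.47) in the cattle-yak over 4 years, or 1.53 relative to nuclear-gene UMIs. Within marker gates the mitochondrial share had no common direction, cattle-yak against 4 years. Lower were mural (13.1% against 17.9%), endothelial (7.99% against 10.4%) and lymphocyte (9.57% against 11.9%). Macrophage (10.4% against 13.8%) and spermatogonium (7.65% against 8.41%) were also lower. Higher were Sertoli (16.5% against 11.7%), stroma (14.4% against 13.5%) and spermatocyte (4.81% against 3.36%). The longer rRNA had the ratio 2.59 (2.58–2.61) and ND6 2.88 (2.62–3.16), the highest of the rRNAs and mRNAs. ATP8 had 1.90 (1.76–2.06), ND1 1.70 (1.68–1.73) and the shorter rRNA 1.44 (1.43–1.45). At the other end ND4 had 1.00 (0.989–1.01), CYTB 1.09 (1.07–1.10) and COX3 1.12 (1.11–1.13). The longer rRNA held 25.8% of mitochondrial UMIs in the cattle-yak and 14.6% at 4 years. In the stroma gate it held 29.4% in the cattle-yak and 18.6% at 4 years. The mural gate had 24.4% in the cattle-yak and 11.1% at 4 years, and the lymphocyte gate 27.9% in the cattle-yak and 14.3% at 4 years. The difference in the longer rRNA's share thus had the same direction within these gates. The spermatid gate held 1043 barcodes at 4 years, at 2.65% mitochondrial UMIs, and 0 in the cattle-yak. With 1 library of each kind, the hybrid, the animal, the age, the mix of cells and the library cannot be told apart.

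The yak of 4 years lay below both libraries of 18 months for the summed mitochondrial UMIs, with CPM ratios of 0.503 (0.502–0.504) over replicate 3 and 0.730 (0.729–0.732) over replicate 4. Within gates the order differed. At 4 years the mural gate (17.9%) lay above both 18-month libraries (15.4% and 10.2%), as did the endothelial gate (10.43% against 10.39% and 5.57%). The lymphocyte, macrophage and spermatogonium gates lay between them, and the Sertoli, stroma and spermatocyte gates below both. The spermatid gate held 1043 barcodes in the single library of 4 years and 0 at 18 months, and its part was not tested. Against replicate 3 the lowest ratios were those of ND6, at 0.222 (0.205–0.240), and ND3, at 0.268 (0.263–0.273). Against replicate 4, ND6 was again lowest at 0.537 (0.491–0.587) and ND3 had 0.727 (0.711–0.743). ND4L had 1.02 (0.961–1.07) over replicate 4, with an interval that includes 1.

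Barcodes above the usual limit were not alike over gates. A limit of 20% would take 70.1% and 23.9% of Sertoli-gated barcodes at 18 months, against 3.94% and 6.71% at 6 months. It would take 27.2% and 24.4% of stroma-gated barcodes at 18 months, against 0.856% and 1.94% at 6 months. Of mural-gated barcodes it would take 26.4% in the cattle-yak and 50.7% at 4 years. Of the 51 barcodes in the CYP11A1 and STAR gate of 6-month replicate 1 it would take 43.1%, where 4.02% of all barcodes of that library lie above it. A single limit thus removes cell classes in unequal parts, and different parts at different ages.

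The rRNA share of mitochondrial UMIs had no common direction with the mitochondrial share. Some lists of nuclear genes, given below, differed above 20% in the same direction in each library, and others did not. In the bin from 60% to 100% mitochondrial UMIs, the rRNA share of them was 40.2% in the cattle-yak, 58.5% and 48.2% at 6 months, 47.0% and 38.5% at 18 months and 28.1% at 4 years. In the bin from 5% to 10% it was 46.5% in the cattle-yak, 55.1% and 41.5% at 6 months, 50.1% and 28.7% at 18 months and 38.0% at 4 years. The highest bin thus lay above the other in 3 libraries (both of 6 months and replicate 4) and below it in the other 3. The median of UMIs outside the mitochondrial genome was 186 to 484 per barcode in the bin from 60% to 100% and 1202 to 2746 in the bin from 5% to 10%. The share and these UMIs are computed from the same total, so this fall is partly arithmetic.

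Genes of the dissociation and stress response (13 in the files, FOS, JUN and DUSP1 among them) had a summed level above 20% over that up to 20%, of nuclear-gene UMIs, of 1.06 in the cattle-yak, 1.85 and 1.66 at 6 months, 1.39 and 1.37 at 18 months and 1.69 at 4 years. The nuclear-encoded subunits of complexes I, III, IV and V had ratios of 0.914 in the cattle-yak, 0.618 and 0.624 at 6 months, 0.597 and 0.606 at 18 months and 0.760 at 4 years. Stress genes were thus higher and nuclear-encoded subunits lower above the limit in 6 of 6 libraries, in mixtures of cell types that differ above and below it. Genes of mitochondrial RNA processing and decay were also lower, with ratios of 0.762 to 0.967. Genes of mitochondrial DNA transcription and replication had no common direction. Their ratios were 1.03 in the cattle-yak, 1.16 and 1.16 at 6 months, 0.942 and 0.958 at 18 months and 0.788 at 4 years. The ratio of the summed CYP11A1 and STAR was 1.56 in the cattle-yak, 18.2 and 3.98 at 6 months, 2.78 and 2.47 at 18 months and 2.84 at 4 years. That of the summed mural markers was 0.985 in the cattle-yak, 1.65 and 0.722 at 6 months, 0.750 and 0.594 at 18 months and 7.32 at 4 years, so mural markers were higher above the limit at 4 years and in 6-month replicate 1 and lower in the other 4 libraries.

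**Figure D5:**
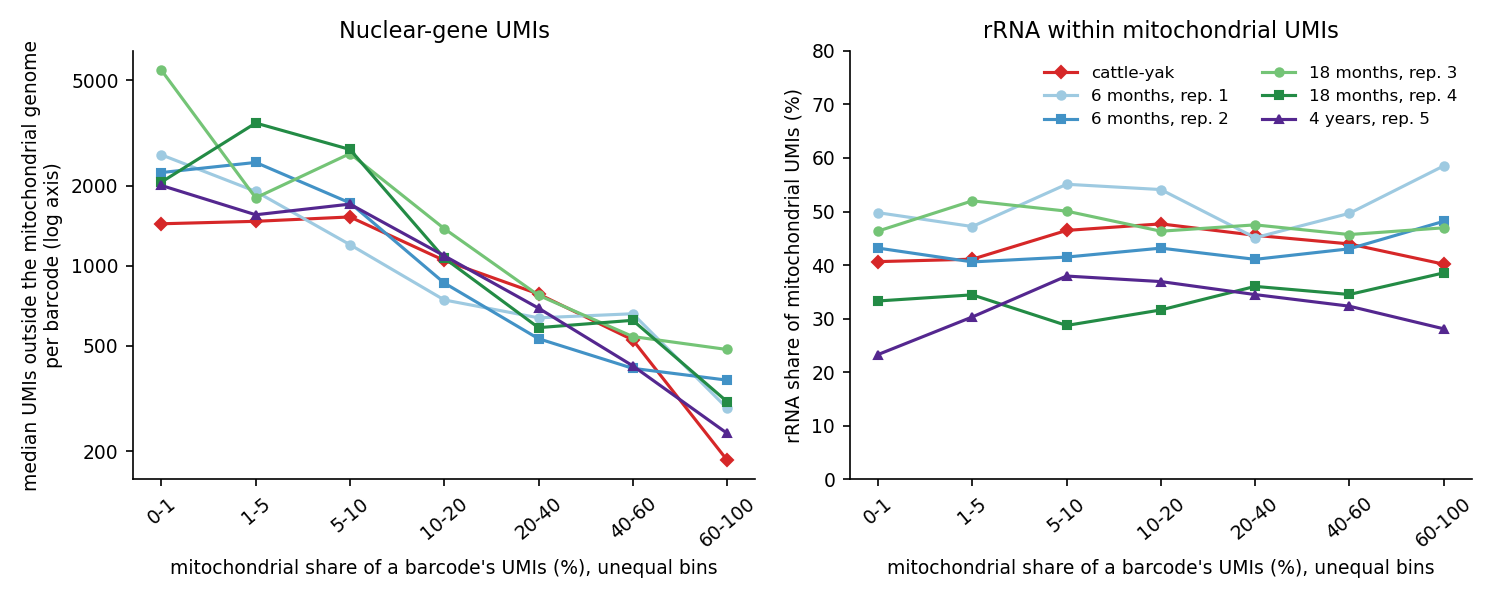
Left, median UMIs outside the mitochondrial genome per barcode (y axis, log scale) and right, rRNA share of mitochondrial UMIs (y axis, %), by bin of mitochondrial share (x axis, %, bins of unequal width), with a line for each library. Nuclear-gene UMIs fall to 186 to 484 in the highest bin, while the rRNA share stays between 23.3% and 58.5% over all bins and libraries.

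Nuclear genes that act on the mitochondrial genome or encode partners of its products were set beside it between the ages. On the TMM scale, in whole libraries, 0 of 14 genes of mitochondrial DNA transcription and replication (POLRMT, TFAM and TWNK among them), 0 of 19 genes of mitochondrial RNA processing and decay and 0 of 26 nuclear-encoded subunits passed (edgeR quasi-likelihood), with 0, 1 and 1 at an unadjusted p below 0.05 and 0 called by DESeq2. Of all genes, 1.01% passed in the edgeR fit, so its counts of 0 in lists of this size say nothing particular to them. In that fit 2966 of 13995 genes had an unadjusted p below 0.05. DESeq2 called 649 of 14503 genes as higher at 18 months and 432 as lower. Their median log2 fold changes were −0.061, −0.14 and −0.57, beside −0.024 over all genes and 0.85 for the mitochondrial features. In the Sertoli gate the medians were −0.060 (12 tested), 0.039 (14) and −0.77 (26), beside 0.061 and 2.11. There edgeR called 0 of them and 0.0% of all genes. Unadjusted p-values were below 0.05 for 0, 1 and 2 of them, beside 1366 of 8510 genes. DESeq2 called SLIRP, a partner of LRPPRC in stabilising mitochondrial mRNA, and ATP5PD of ATP synthase as lower (log2 fold changes −1.58 ± 0.54 and −1.48 ± 0.52), beside 12.0% of genes. On library totals, 3 of 19 RNA processing genes rose in whole libraries, where 17.8% of all genes did. They were GRSF1 (2.05 ± 0.48), an RNA-binding protein of mitochondrial RNA granules, LRPPRC (1.75 ± 0.49) and the exonuclease PNPT1 (1.62 ± 0.53), with adjusted p = 0.0134, 0.0250 and 0.0480 (edgeR quasi-likelihood). The list's median there was 0.90, beside 0.97 over all genes.

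Dissociation and stress genes had a summed level of 21876 and 13388 CPM at 18 months, against 6736 and 5590.0 CPM at 6 months in the Sertoli gate (of nuclear-gene UMIs), and thus differed between the ages in the same direction as the mitochondrial features. The stroma gate had 20275 and 17349 CPM at 18 months, against 15256 and 15772 CPM at 6 months. With edgeR 0 of 13 of them passed in either gate, where 0.0% of all genes did in the Sertoli and 0.971% in the stroma gate. An unadjusted p below 0.05 was found for 1 and 1 of them, beside 1366 of 8510 and 1309 of 7620 genes. DESeq2 called 0 of them. It called 33 genes higher and 146 lower of 1214 in the Sertoli gate, and 26 higher and 13 lower of 16481 in the stroma gate. The part of the stress genes in the mitochondrial result was not tested.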

How the data were processed

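Single-cell RNA of testis was measured in 6 libraries. The deposited matrices hold raw UMI counts per gene and barcode, not normalized by the authors, made with Cell Ranger. Its version is 5.0.0 in the headers of the files, but the submitters' processing notes name 2.1.1. The aligner settings, genome build, chemistry version and strand setting are not given in the sources used here. Every barcode was kept. Gates used the markers in the files (2 different markers, 2 times every other list), no doublet caller was run, and a gate without barcodes holding UMIs of another list stood in for it as an alternative. UMIs summed per library, or per library and gate with at least 50 barcodes in each of the 4 libraries, were tested between 18 and 6 months with edgeR 4.0.16 (quasi-likelihood, TMM, filterByExpr) in R 4.3.3 with limma 3.58.1, Benjamini-Hochberg adjusted over all genes tested, threshold 0.05. Gate-by-age terms were tested with library as a block. DESeq2 1.42.0, library totals, scaling on genes outside the mitochondrial genome, no low-count filter and 3 markers were alternatives. So were 300 or more genes, at most 20% or 40% mitochondrial UMIs, thinning to 500 UMIs and leaving out each replicate. The edgeR steps were tested on simulated data. Shares were computed in Python 3.11.15 with numpy 2.4.6, scipy 1.17.1 and pandas 2.3.3. The text names the rRNAs and mRNAs, the 3 tRNAs with the most UMIs and the rarest, the feature of smallest adjusted p in each gate, and list genes that passed. Other features singled out, and the 1% limit, were chosen after their values were seen. The members and lists were chosen with earlier results of these data known. Of the list genes, those absent from the files by symbol were left out. Gene lengths and neighbours came from the NCBI RefSeq gene table.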

Additional observations from a re-analysis of the deposited data

Results flagged for a closer look

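The change of mitochondrial RNA between 18 and 6 months differed between marker gates for 12 features, by the test of the gate-by-age terms (edgeR quasi-likelihood, adjusted over 9106 genes, of which 4.41% were called). The adjusted p was 0.0345 for the shorter rRNA. For the complex I subunits it was 0.000551 for ND1, 0.000318 for ND2, 0.00267 for ND3, 0.00744 for ND4L, 0.000303 for ND4 and 0.00764 for ND5 (edgeR). For complex IV it was 0.000565 for COX1, 0.000284 for COX2 and 0.000231 for COX3 (edgeR). CYTB of complex III had 0.000256 and ATP6 of complex V had 0.000284. The excess over the endothelial gate was positive in the Sertoli gate for 12 of these 12, in the stroma gate for 11, in the lymphocyte gate for 9 and in the mural gate for 4. Library depth, the share of barcodes up to 1% and the summed stress genes also differed between the ages in the Sertoli gate, as given above, and their part was not tested.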

How the results depend on the processing

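Of 972 log2 fold changes of single rRNAs and mRNAs recomputed under the alternatives, 860 kept their direction and their side of the threshold, 102 kept their direction and passed it, and 10 changed sign, none of them a call. In barcodes of 300 or more genes and at most 20% these were the shorter rRNA (−0.10), the longer rRNA (−0.094) and ND4L (−0.090) in whole libraries and ND4L in the mural gate (−0.028). With a replicate left out in turn, ND4L ranged over −0.11 to 0.51 in whole libraries and −0.094 to 0.37 in the mural gate (lowest without replicate 1), CYTB over −0.057 to 0.94 in the endothelial and −0.027 to 0.83 in the mural gate (lowest without replicate 1), and ATP8 over −0.075 to 0.58 in whole libraries and −0.19 to 1.69 in the lymphocyte gate (lowest without replicate 3). The count of features called in whole libraries was 0 of 21. On library totals it was 12 of 21, beside 2490 of 13995 genes called as higher at 18 months. By DESeq2 it was 1 of 24, beside 649 of 14503, and with no filter on low counts 2 of 37, beside 1334 of 21633. At most 40% mitochondrial UMIs it was 0, beside 145 of 13946. With 300 or more genes and at most 20% it was 0, beside 261 of 13692. Scaling on genes outside the mitochondrial genome gave 0, beside 111 of 13995. Single replicates left out also changed the count, as given above. In the Sertoli gate it was 12 of 15 on library totals, beside 180 of 8510 genes called as higher at 18 months. By DESeq2 it was 15 of 15, beside 33 of 1214. With no filter on low counts it was 6 of 33, beside 156 of 17483. With mixed barcodes left out it was 15 of 15, beside 518 of 5035. Scaling on genes outside the mitochondrial genome gave 0 of 15, beside 0 of 8510. With 3 markers it was 0 of 15, as with 300 or more genes and at most 20% mitochondrial UMIs. With a replicate left out it was 1 to 19, as given above. In the stroma gate it was 5 of 15 on library totals, 2 of 31 by DESeq2 and 4 of 31 with no filter. Genes called as higher were 133 of 7620, 26 of 16481 and 230 of 16481. With 3 markers it was 2 of 15, beside 25 of 4589. With 300 or more genes and at most 20% mitochondrial UMIs it was 0 of 15, beside 52 of 7282. With mixed barcodes left out it was 0 of 15, beside 15 of 3341. Scaling on genes outside the mitochondrial genome gave 0 of 15, beside 61 of 7620. Leaving out a replicate gave 0 to 1 in the endothelial and 0 to 6 in the mural gate, and 2 to 15 for the gate-by-age terms, where the count without replicate 2 was 2. The cause was not tested. In barcodes of at most 20% the mitochondrial share was 9.11% in the cattle-yak, 4.41% in 6-month replicate 2, 9.66% in 18-month replicate 3 and 5.90% at 4 years, by construction lower. The mean over barcodes thinned to 500 UMIs, in which each barcode weighs the same, was 15.2% in the cattle-yak, 6.56% and 7.89% at 6 months, 21.9% and 17.0% at 18 months and 14.4% at 4 years. In barcodes of 300 or more genes it was 11.1% in the cattle-yak and 7.86% at 4 years. At most 20%, the rRNA share was 46.9% in the cattle-yak and 36.2% at 4 years. Relative to nuclear-gene UMIs the ratios were 1.53 for the cattle-yak over 4 years, and 0.457 and 0.705 for 4 years over 18-month replicates 3 and 4. No paired analysis was possible because the libraries of 6 and 18 months share no replicate number. Depth limits the tRNAs and gates of few barcodes.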
